A study of Homo sapiens with 8 samples.

Results

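The cultures described here are the DMSO-treated AML-OCI3 cells of an RNA-seq study, compared between 48 h and 24 h of treatment. They account for 4 of its 8 libraries, and were chosen by their labels alone, which give DMSO with a time of 24 h for 2 libraries and DMSO with 48 h for 2. AML-OCI3 is an established human acute myeloid leukaemia line, grown here in RPMI with serum and antibiotics, and DMSO is the solvent in which drugs are given, so these libraries are the vehicle controls. The other 4 libraries came from the same line given JIB-04 at 40 nM, which inhibits histone demethylases of the Jumonji type, for 24 h (2 libraries) or 48 h (2 libraries), and serve below to show where the time change of the DMSO cultures differed and, in each test, to help set the estimate of the spread between replicates. All groups are of 1 cell line, and the labels name no time point before 24 h. Whether replicates were separate cultures is not said, so a p-value here speaks for the variation among these libraries alone, and that variation may be technical. Time in culture goes together with harvest, and the effects of the 2 cannot be told apart.

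Interferon-stimulated genes are switched on when type I interferon binds its receptor and the JAK kinases activate transcription factors that bind the interferon-stimulated response element in promoters. Genes for DNA replication are driven by E2F factors at the entry into S phase and genes for mitosis by the MuvB complexes with MYBL2 and FOXM1, while the factor ATF4 induces genes of amino acid synthesis, import and tRNA charging when amino acids run short or the endoplasmic reticulum is stressed.

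The DMSO libraries held 20044296 and 21556709 counts at 24 h and 19569169 and 22193377 counts at 48 h, of which mitochondrially encoded genes took 6.18% to 7.22%. Levels are given below as CPM, counts scaled to a common library size with replicate 1 first. Of the 10 markers of the line's myeloid identity, all were tested, and their summed level was 1133 and 1391 CPM at 24 h and 1133 and 1158 CPM at 48 h. The granule enzyme MPO, one of them, was low, at 2.23 and 3.26 CPM at 24 h and 2.52 and 2.13 CPM at 48 h. The sums over marker lists of 6 other kinds of cell (red cells, platelet precursors, T or NK cells, B or plasma cells, epithelium and fibroblasts) lay between 0.181 and 9.56 CPM in the 4 libraries, the highest being the T or NK list in the second library of 24 h.

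The DMSO replicates of 24 h differed in a way that followed GC content, more than the DMSO replicates of 48 h. Over 9529 well expressed genes, the log2 difference between the 24 h replicates had an SD of 0.409 and a Spearman correlation of -0.802 with GC content across genes, which are not independent replicates. Between the 48 h replicates the SD was 0.126 and the correlation 0.0224. The JIB-04 replicates, which help set the spread, also differed along GC content. Their SD was 0.319 at 24 h and 0.260 at 48 h, and their correlations were 0.879 and 0.835. With these genes in 10 equal groups by GC content, the median log2 time change was 0.11 in the group of lowest content and -0.19 in that of highest content. The tests were therefore read in 2 ways, on the counts as scaled and with a smooth trend on GC content removed from each library. Removal of the trend brought the replicate SD of DMSO at 24 h to 0.217 and the median time changes of those extreme GC groups to 0.01 each.

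**Figure D1:**
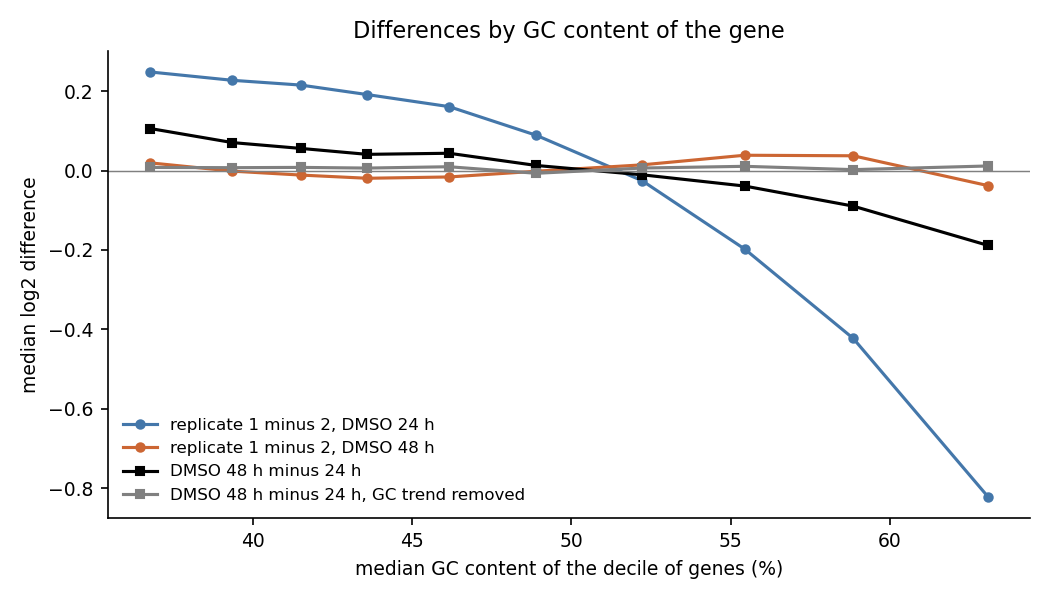
Median log2 difference (vertical axis) of 9529 well expressed genes in 10 groups by GC content (horizontal axis, median percent of the group). The line of the 24 h replicates runs from 0.25 to -0.82, that of the 48 h replicates stays between -0.04 and 0.04, and the time change runs from 0.11 to -0.19 before and close to 0 after removal of the trend.

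After 48 h, antiviral genes of the interferon response, the calcium-binding protein gene S100P and the arginine synthesis gene ASS1 were higher than after 24 h. The annexin genes ANXA1 and ANXA2, the calcium-binding protein genes S100A4 and S100A10, the scavenger receptor CD163 and the protease gene GZMA were lower. Of 15248 tested genes, 65 passed edgeR's quasi-likelihood test at an adjusted p under 0.05 (0.426%), 40 of them higher (0.262%) and 25 lower (0.164%), and 53 of them differed by at least 2-fold. At an unadjusted p under 0.05 there were 1864 of the 15248, with 1043 higher and 821 lower. DESeq2 called 116 higher and 111 lower. In all 65 the CPM values of the 24 h and 48 h libraries did not overlap, which was also so for 44.6% of all tested genes. With the GC trend removed, 1980 genes passed (13%), 1064 higher (6.98%) and 916 lower (6.01%), with all 65 among them. Of the 65, 5 have no symbol and are not described. The count of 65 rested on that shared estimate of the spread: a fit of the 4 DMSO libraries alone called 0 genes (2074 at an unadjusted p under 0.05, smallest adjusted p 0.0955), and 908 with the GC trend removed. It also depended on single libraries: without DMSO 48 h replicate 1 it was 1, without DMSO 48 h replicate 2 it was 2, without DMSO 24 h replicates 1 and 2 it was 41 and 18, and without JIB-04 48 h replicates 1 and 2 it was 24 and 23. In that second reading the counts without DMSO 48 h replicate 1 or 2 were 439 and 468, and 62 of the 65 genes were among them each time.

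**Figure D2:**
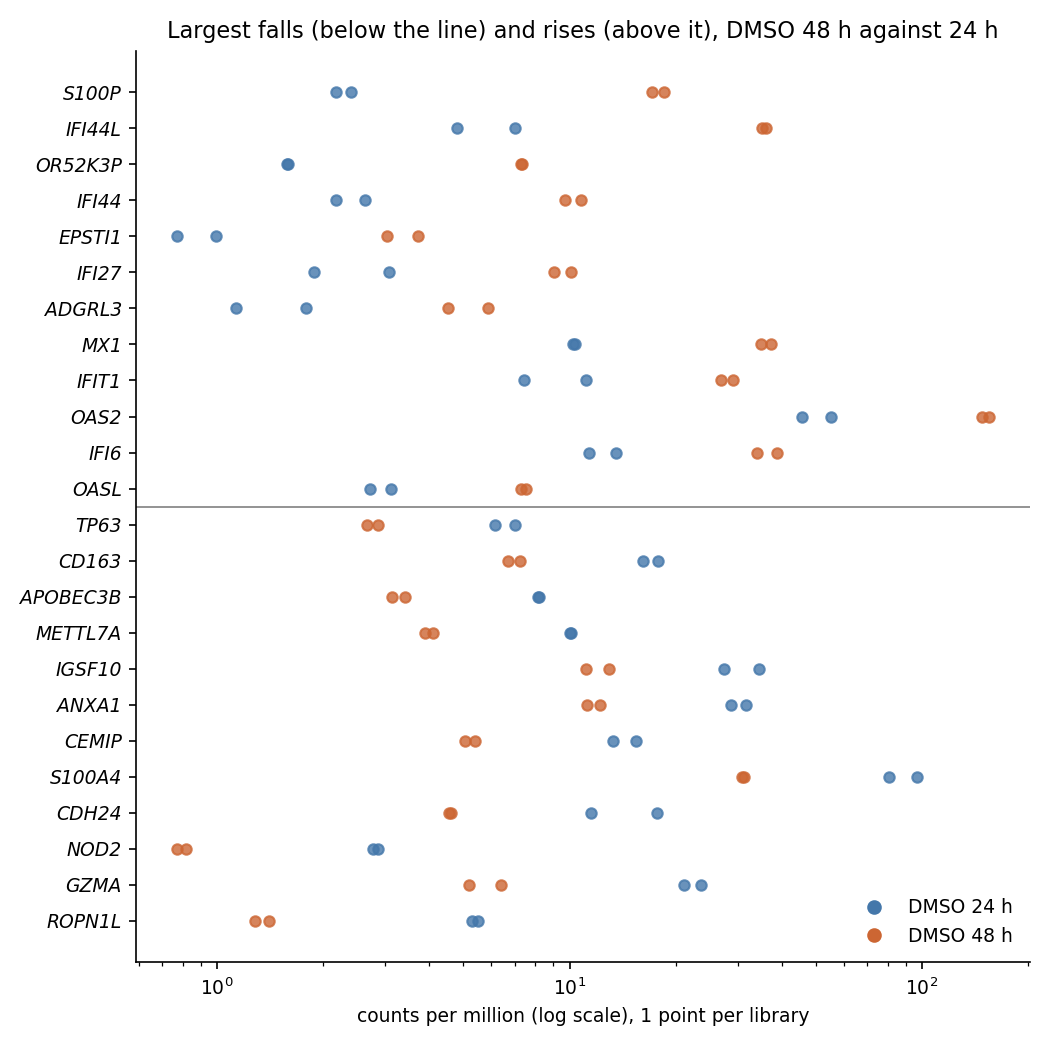
CPM on a log axis (horizontal) of the 12 genes with the largest falls and the 12 with the largest rises among the passing genes with a mean log2 CPM of at least 1, 1 point per DMSO library. The points of 24 h and 48 h are apart in each gene, and S100P, at 2.18 and 2.40 CPM against 18.6 and 17.2 CPM, has the widest gap.

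S100P, a calcium-binding protein that many tumour cells secrete, had 2.18 and 2.40 CPM at 24 h and 18.6 and 17.2 CPM at 48 h. Both 48 h libraries were far above both 24 h libraries, with a log2 change of 2.96 ± 0.17 (SE) and an adjusted p of 0.00109, the smallest of all tested genes. ASS1, which makes argininosuccinate for arginine synthesis, rose from 304 and 331 CPM to 755 and 743 CPM (log2 change 1.24 ± 0.15; adjusted p = 0.0208). The carbonic anhydrase gene CA2, chosen for description after its values were seen, as was ASS1, rose from 220.2 and 197 CPM to 418 and 445 CPM (log2 change 1.05 ± 0.12; adjusted p = 0.0171). In both genes each 48 h library lay above each 24 h library by more than the replicates differed. ADGRL3, an adhesion receptor of the latrophilin family, rose from 1.78 and 1.13 CPM to 4.52 and 5.86 CPM (1.84 ± 0.28; adjusted p = 0.0397). The transcribed olfactory receptor pseudogene OR52K3P rose from 1.58 and 1.59 CPM to 7.30 and 7.35 CPM (2.20 ± 0.26; adjusted p = 0.0208). TXNIP, an arrestin-related inhibitor of thioredoxin and glucose uptake, and AKR1C1, an aldo-keto reductase with near-identical sister genes, rose by 0.79 and 0.94 on the log2 scale (adjusted p = 0.0429 and 0.0352).

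The interferon-stimulated genes formed the largest group among the rises, with 16 of the 40. Of 54 listed genes 51 were tested, and 16 were higher and 0 lower, where 0.262% of all tested genes were higher. The median log2 change over the 51 tested members was 0.84, against 0.01 over all tested genes. After removal of the GC trend 38 were higher and 2 lower. The count of 16 was 0 in the fit of the DMSO libraries alone (31 higher and 2 lower with the GC trend removed), 0 without either of the DMSO 48 h libraries, 8 without DMSO 24 h replicate 2 and 9 without either JIB-04 48 h library, while the median stayed between 0.76 and 0.85 when any 1 library was left out.

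Of the antiviral effectors, 13 of 31 tested members rose. MX1, a dynamin-like GTPase that blocks viral nucleoproteins, had 10.3 and 10.3 CPM at 24 h and 37.3 and 34.9 CPM at 48 h. Its replicates were close at each time and the groups were well apart, with a log2 change of 1.81 ± 0.13 (adjusted p = 0.00419). IFI44L, a paralogue of the neighbouring IFI44, rose by 2.6 ± 0.25, from 6.98 and 4.80 CPM to 35.2 and 36.1 CPM (adjusted p = 0.0108), and IFI44 by 2.10 ± 0.21, from 2.62 and 2.18 CPM to 9.71 and 10.8 CPM (adjusted p = 0.0108). The oligoadenylate synthetases, which sense double-stranded RNA and activate RNase L, all passed among the tested members. OAS2 went from 55.3 and 45.8 CPM to 148 and 155 CPM (1.59 ± 0.13; adjusted p = 0.00765) and OAS3 from 24.9 and 27 CPM to 62.7 and 65.6 CPM (1.31 ± 0.13; adjusted p = 0.0108). OAS1 also passed (1.25 on the log2 scale; adjusted p = 0.0147), as did the related OASL (1.34; adjusted p = 0.0474). In each of these genes both 48 h libraries were above both 24 h libraries. IFIT1, which binds RNA with a foreign cap, rose from 11.1 and 7.43 CPM to 27 and 29.1 CPM (1.60 ± 0.20; adjusted p = 0.0212), and the mitochondrial protein gene IFI6 from 11.4 and 13.5 CPM to 34 and 38.8 CPM (1.55 ± 0.15; adjusted p = 0.0108). The low-level genes IFI27, a small membrane protein, and EPSTI1 rose by 1.94 and 1.94 (adjusted p = 0.0351 and 0.0352). IFIT, OAS and IFI44 genes have similar relatives, among which the counting could have split reads.

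Of the sensors and signalling genes, IRF7, the factor that amplifies interferon production, had 2.97 and 9.25 CPM at 24 h and 11.4 and 11.1 CPM at 48 h. The replicates of 24 h differed widely in this GC-rich gene, whose log2 change of 0.87 ± 0.43 did not pass (adjusted p = 0.472), and which rose with the GC trend removed (1.20; adjusted p = 0.00312). The ubiquitin-like protein gene ISG15 showed the same spread, at 2.67 and 8.11 CPM and 7.66 and 9.53 CPM, and its groups overlapped (log2 change 0.67 ± 0.46; adjusted p = 0.637, and 0.0415 with the trend removed). Of the 9 tested ubiquitin-like and feedback genes, 2 rose, the ADP-ribosyltransferase genes PARP9 (1.13) and PARP14 (0.97), with adjusted p of 0.0465 and 0.0352. Another 1 of the 9 had a negative log2 change, of -2.50, and did not pass. With the GC trend removed 6 of the 9 were higher and 1 lower, and of the 31 antiviral effectors 24 and 1. Of all tested genes 6.98% were higher and 6.01% lower in that reading.

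The promoters of the interferon genes that rose are shown because the interferon-stimulated response element is the promoter element of this pathway. RefSeq promoters (GRCh38.p14, 250 bases before to 50 after the start) were available for 13 of the 16, and GAAA followed after any 2 bases by GAAA, searched on both strands, were in 9 of the 13 (69.2%), in 22 of 38 promoters of the whole list (57.9%) and in 309 of 10589 promoters of tested genes (2.92%). They were in 0 of 15 promoters of the rising genes outside the list. Among the listed genes that did not pass they were in 13 of 25 promoters (52.0%). Capitals mark every match, read 5′ to 3′ on the gene's strand, in 60 bases that lie before the start of each gene, at chr1:78620259-78620318 (plus strand) for IFI44L, chr12:112938306-112938365 (plus) for OAS3, chr1:27672314-27672373 (minus) for IFI6, chr10:89392482-89392541 (plus) for IFIT1, chr14:94110603-94110662 (plus) for IFI27 and chr13:42992257-42992316 (minus) for EPSTI1.
IFI44L: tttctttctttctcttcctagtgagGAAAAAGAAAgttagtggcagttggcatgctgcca
OAS3: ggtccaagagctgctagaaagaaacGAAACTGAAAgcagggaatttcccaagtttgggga
IFI6: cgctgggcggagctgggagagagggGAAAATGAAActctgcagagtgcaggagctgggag
IFIT1: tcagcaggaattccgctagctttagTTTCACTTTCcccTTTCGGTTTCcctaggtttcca
IFI27: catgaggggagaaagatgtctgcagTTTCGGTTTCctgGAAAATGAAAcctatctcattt
EPSTI1: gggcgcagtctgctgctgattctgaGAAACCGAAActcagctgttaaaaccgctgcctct
IFI44L, OAS3, IFI6 and EPSTI1 hold the match on the gene's strand, IFIT1 holds a pair on the opposite strand, and IFI27 holds one on each. A match is a description of these letters and not of binding.

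The largest falls were of genes with varied roles. GZMA, a serine protease gene better known from cytotoxic lymphocytes, had 23.7 and 21.1 CPM at 24 h and 5.19 and 6.40 CPM at 48 h (log2 change -1.95 ± 0.20; adjusted p = 0.0108). The fall was several times the difference between replicates. The summed T or NK markers lay between 4.72 and 9.56 CPM and came nearly all from NKG7, a granule protein gene with 5.50 and 9.38 CPM at 24 h and 4.78 and 4.68 CPM at 48 h. NKG7 did not overlap between the times either and did not pass (log2 change -0.66 ± 0.27; adjusted p = 0.38), and the part of such cells in the GZMA result was not tested. ROPN1L, a ropporin-like gene of motile cilia and sperm tails, fell from 5.30 and 5.48 CPM to 1.28 and 1.41 CPM (-2.0 ± 0.20; adjusted p = 0.0108). NOD2, the cytosolic receptor for bacterial muramyl dipeptide, fell by 1.82 from a low level of 2.77 and 2.86 CPM (adjusted p = 0.0453). EPAS1, which encodes the hypoxia-inducible factor HIF-2α, fell from 26 and 30.3 CPM to 12.3 and 12.3 CPM (-1.20 ± 0.15; adjusted p = 0.0212). APOBEC3B, a cytidine deaminase with close paralogues, TP63, a p53 family factor, the methyltransferase-like METTL7A, the immunoglobulin superfamily gene IGSF10 and the cadherin gene CDH24 fell by 1.32, 1.25, 1.33, 1.36 and 1.67 on the log2 scale (adjusted p between 0.0212 and 0.0491). Of secreted and matrix genes, CEMIP, which takes part in hyaluronan breakdown, fell from 13.3 and 15.4 CPM to 5.04 and 5.40 CPM (-1.46 ± 0.18; adjusted p = 0.0208), and FN1, fibronectin, from 134 and 131 CPM to 73.3 and 76.8 CPM (-0.82 ± 0.11; adjusted p = 0.0316). They were the 2 of 22 tested adhesion and secreted genes that passed, both lower, where 0.164% of all tested genes were lower; the median of the 22 was -0.27 (-0.34 and -0.14 without DMSO 24 h replicates 1 and 2), and with the GC trend removed 8 were lower, against 6.01% of all tested genes. The count of 2 was 0 without either DMSO 48 h library or without DMSO 24 h replicate 2, and 1 without either JIB-04 48 h library.

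Of 49 tested myeloid differentiation genes, 1 was higher and 5 were lower, where 0.262% and 0.164% of all tested genes were. The median log2 change was -0.21, and it was -0.31 and -0.03 without DMSO 24 h replicates 1 and 2. With the GC trend removed 5 were higher and 13 lower (median -0.12), against 6.98% and 6.01% of all tested genes. The annexin and S100 genes, calcium-regulated proteins, several of them known from maturing myeloid cells, held most of them. Of 7 tested, 1 (S100P) was higher and 4 were lower, with a median of -0.95. ANXA2, a membrane-binding protein that forms a complex with S100A10, had 585 and 499.5 CPM at 24 h and 280.0 and 282 CPM at 48 h, a fall of 0.95 on the log2 scale (adjusted p = 0.0172). Its partner S100A10 went from 32.1 and 29.9 CPM to 15.2 and 15.9 CPM (log2 change -1.0 ± 0.15; adjusted p = 0.0414). Both genes were at nearly equal levels in the 2 libraries of 48 h and higher in each library of 24 h. ANXA1, the annexin that mediates glucocorticoid effects on inflammation, fell from 31.6 and 28.8 CPM to 12.2 and 11.2 CPM (-1.37 ± 0.14; adjusted p = 0.0108), and S100A4 from 96.8 and 80.8 CPM to 31.2 and 30.9 CPM (-1.52 ± 0.17; adjusted p = 0.0171). CD163, the haemoglobin scavenger receptor of macrophages, fell by 1.29, from 17.9 and 16.1 CPM to 7.25 and 6.67 CPM (adjusted p = 0.0188). It was the 1 of 16 tested myeloid surface genes that passed on the counts as scaled. With the GC trend removed 4 of the 16 were higher and 5 lower. The lysozyme gene LYZ, at 211 and 186 CPM and 135 and 137 CPM, did not pass (-0.54 ± 0.12; adjusted p = 0.119) and was lower with the GC trend removed (adjusted p = 0.00182). The integrin gene ITGAM (-0.41) and MPO (-0.24) passed in neither reading. Without either DMSO 48 h library the count of lower myeloid genes was 0, with S100P still higher.

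**Figure D3:**
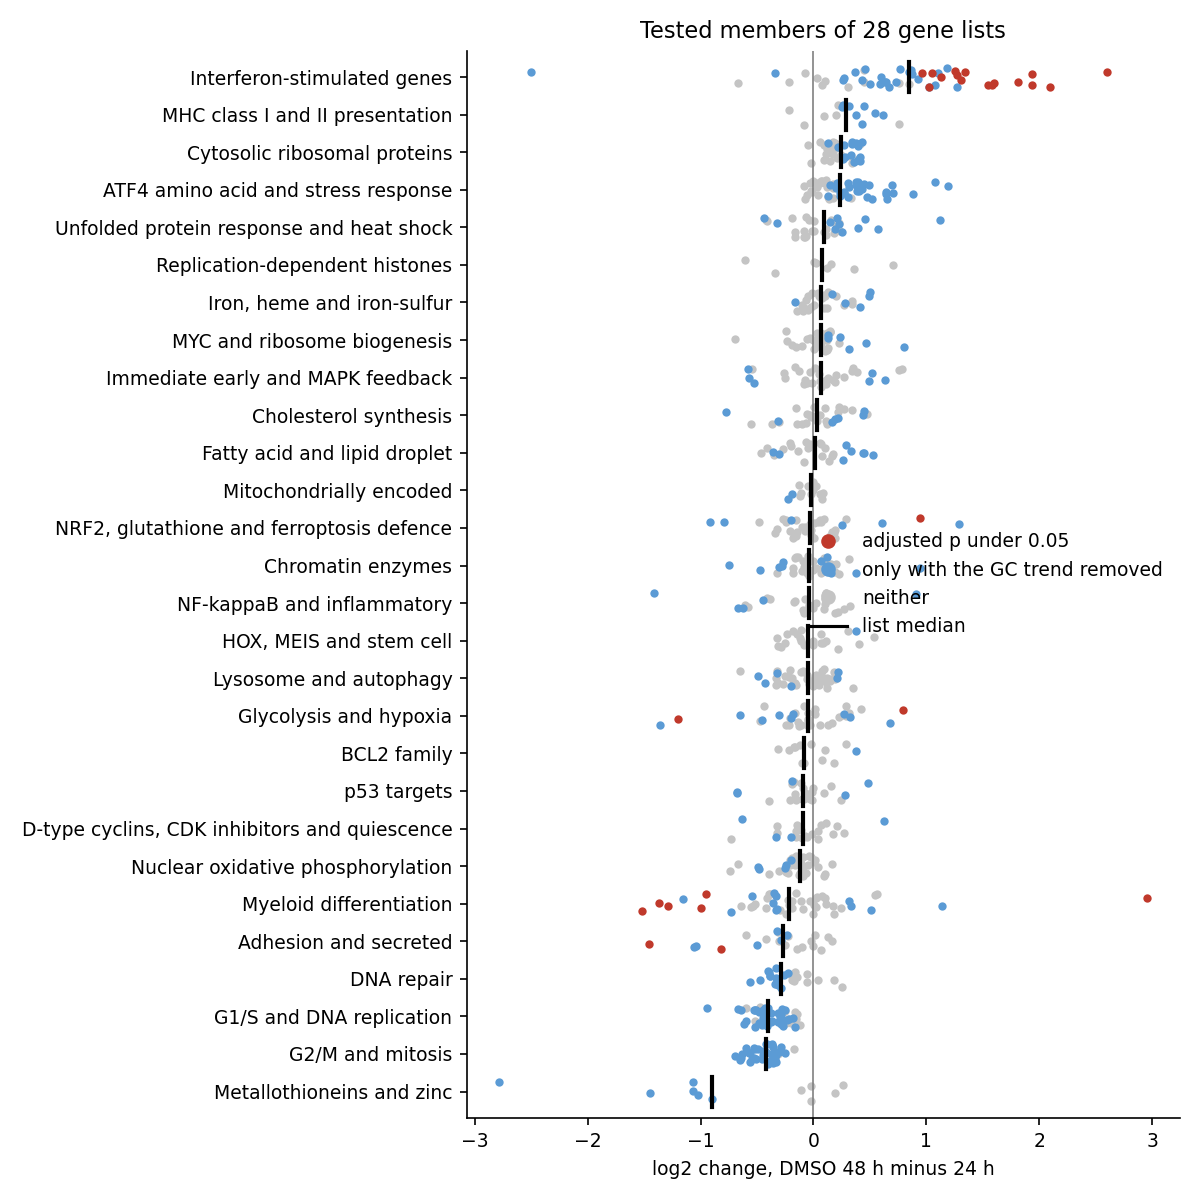
Log2 change, DMSO 48 h minus 24 h (horizontal axis), of the tested members of 28 gene lists, 1 point per gene, coloured by the test each passed, with a black bar at the list median. Lists are ordered by median, from -0.90 for metallothioneins and zinc genes to 0.84 for interferon-stimulated genes, whose 16 passing members stand at the right.

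Genes of DNA replication and mitosis were lower at 48 h in nearly uniform fashion. In the 2 readings these amounts passed edgeR's test only with the GC trend removed. With no filter on low counts 1 gene of G2/M and mitosis passed on the counts as scaled. All 52 tested genes of G1/S and replication had a negative log2 change, with a median of -0.40, and all 37 of G2/M and mitosis, with a median of -0.42. By edgeR's test on the counts as scaled 0 of the 52 and 0 of the 37 passed. At an unadjusted p under 0.05 there were 35 and 26, all lower, where 821 of all 15248 tested genes were lower at that p. DESeq2 called 8 and 7 lower, where it called 111 of all tested genes lower, and limma-voom called 0 and 0. With the GC trend removed 40 and 34 were lower and 0 and 0 higher, where 6.01% of all tested genes were lower. In that reading the DNA repair list had 15 of 25 members lower (median -0.31). Without DMSO 48 h replicate 1 or 2, the G1/S count in that reading was 15 each time and the DNA repair count 3 each time; the G2/M count stayed between 23 and 33 when any 1 library was left out.

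MKI67, the proliferation antigen Ki-67, had 749.9 and 648 CPM at 24 h and 462 and 483 CPM at 48 h. Both 48 h libraries were below both 24 h libraries (log2 change -0.57 ± 0.10; adjusted p = 0.0734, and 0.000211 with the trend removed). CDC6, which loads the replicative helicase at origins, went from 103 and 84.7 CPM to 60.3 and 59.8 CPM (-0.64 ± 0.13; adjusted p = 0.103 and 0.000434). POLA2, a subunit of the primase complex, went from 89.6 and 80.9 CPM to 54.1 and 57.5 CPM (-0.61 ± 0.11; adjusted p = 0.0759 and 0.00639). TYMS, the thymidylate synthase that supplies dTMP, went from 403 and 375 CPM to 281 and 291 CPM (-0.44 ± 0.10; adjusted p = 0.131 and 0.00206). In these 3 genes the groups did not overlap. The helicase subunit MCM2 spread more at 24 h, with 306 and 409 CPM against 251 and 248 CPM (-0.52 ± 0.19; adjusted p = 0.311 and 0.00167). Of the mitotic genes, BIRC5 (survivin, of the chromosomal passenger complex), AURKA (a spindle kinase) and KIF20A (a kinesin of cytokinesis) had log2 changes of -0.64, -0.52 and -0.60 and passed with the trend removed (adjusted p = 0.0015, 0.000726 and 0.00104).

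The upstream regulators of the G1 phase did not move together. CCND1, cyclin D1, had 21.9 and 26.8 CPM at 24 h and 37.6 and 37.5 CPM at 48 h, and CCND3, cyclin D3, had 88.7 and 126 CPM and 71.1 and 67.1 CPM. Their log2 changes were 0.63 ± 0.14 and -0.63 ± 0.19, in opposite directions, and passed with the trend removed (adjusted p = 0.00853 and 0.0052). CCND2 was not among the tested genes. The CDK inhibitor genes CDKN1A and CDKN1B had log2 changes of -0.08 and -0.11 with overlapping groups and passed in neither reading. Of the whole list of 22 D-type cyclins, CDK inhibitors and quiescence genes, 0 passed on the counts as scaled. At an unadjusted p under 0.05 there were 3, where 1864 of all 15248 tested genes were. DESeq2 called 1 and limma-voom 0, where they called 227 and 57 of all tested genes. With the trend removed 1 was higher and 3 lower, where 6.98% and 6.01% of all tested genes were. In a fit of the DMSO libraries alone, with the trend removed, 0 were higher and 3 lower, so that CCND1 did not pass there. MYC, at 317 and 385 CPM and 492 and 479 CPM, was higher with the trend removed (0.50; adjusted p = 0.00206) and did not pass otherwise (adjusted p = 0.177).

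E2F letters (TTTCCCGC, TTTGGCGC, TTTCGCGC or TTTGCCGC on either strand) were in 21 of 44 available promoters of the G1/S list (47.7%), against 5.42% of the promoters of tested genes. The letters TTTGAA of the cell cycle homology region were in 20 of 31 promoters of the G2/M list (64.5%, against 9.88%) and CCAAT in 23 of the 31 (74.2%, against 36.7%). These list shares count every available promoter, whether or not its gene passed, and so say nothing about the time change. The E2F letters of TYMS, POLA2 and MCM6 are shown in capitals as examples of the group, with sequence from RefSeq (GRCh38.p14) before the start at chr18:657589-657646 (plus strand), chr11:65261884-65261941 (plus) and chr2:135876563-135876620 (minus), each read on the gene's strand.
TYMS: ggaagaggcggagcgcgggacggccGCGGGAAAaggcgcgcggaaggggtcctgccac
POLA2: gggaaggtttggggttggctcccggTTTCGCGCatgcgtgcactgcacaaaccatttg
MCM6: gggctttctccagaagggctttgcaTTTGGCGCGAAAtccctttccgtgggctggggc
In TYMS the match is on the opposite strand, and in MCM6 the capitals hold overlapping matches on both strands.

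Genes of the ATF4 response had mostly positive changes, which in the 2 readings passed edgeR's test only with the GC trend removed. With no filter on low counts 1 gene of the list passed on the counts as scaled. Of 53 tested, 46 had a positive log2 change and the median was 0.24. On the counts as scaled 0 passed. At an unadjusted p under 0.05 there were 16, all higher, where 1043 of all 15248 tested genes were higher at that p. DESeq2 called 7 higher, where it called 116 of all tested genes higher, and limma-voom called 0. With the GC trend removed 30 were higher and 0 lower, where 6.98% of all tested genes were higher, and without DMSO 48 h replicate 1 or 2 the count was 11 each time. ASNS, asparagine synthetase, had 370.0 and 325 CPM at 24 h and 553 and 572 CPM at 48 h. Its groups did not overlap (log2 change 0.70 ± 0.14; adjusted p = 0.0939, and 0.0012 with the trend removed). CTH, the cystathionine gamma-lyase that makes cysteine, went from 11 and 9.88 CPM to 18.2 and 20.2 CPM (0.88 ± 0.16; adjusted p = 0.077 and 0.00421). ALDH1L2, a mitochondrial folate enzyme, and SARS1, the seryl-tRNA synthetase, had log2 changes of 0.64 and 0.47 (adjusted p = 0.000287 and 0.00111 with the trend removed). So did the secreted factors VEGFA and STC2, with 0.71 and 0.64 (adjusted p = 0.000776 and 0.00451). The serine synthesis gene PSAT1 and the cystine importer SLC7A11 had smaller changes of 0.27 and 0.39 (adjusted p = 0.0472 and 0.0199). DDIT4, an inhibitor of mTORC1, varied at 24 h, with 30.6 and 60.2 CPM against 65.2 and 77.8 CPM (0.65 ± 0.28; adjusted p = 0.392 and 0.0268).

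The composite element through which ATF4 acts was searched as TGATGNAA on both strands. It was in 11 of 43 available promoters of the list (25.6%), against 1.81% of the promoters of tested genes. This list share again counts every available promoter, whether or not its gene passed, and says nothing about the time change. The match of ASNS is shown in capitals, before the start at chr7:97872444-97872501 (minus strand, RefSeq, GRCh38.p14), read on the gene's strand.
ASNS: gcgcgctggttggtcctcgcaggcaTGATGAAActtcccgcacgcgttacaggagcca

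Some genes of the ribosome and of antigen presentation were also higher with the GC trend removed, and some metallothionein genes lower. On the counts as scaled none of the 3 lists had a passing gene by edgeR's test, and with the trend removed 6.98% of all tested genes were higher and 6.01% lower. At an unadjusted p under 0.05, 1043 of all 15248 tested genes were higher and 821 lower, and DESeq2 called 116 higher and 111 lower. Of 37 tested cytosolic ribosomal protein genes 16 had an unadjusted p under 0.05, 35 had a positive log2 change (median 0.25), and 16 were higher with the trend removed; DESeq2 and limma-voom called 0. RPS12, a small subunit protein, had 1193 and 1118 CPM at 24 h and 1485 and 1439 CPM at 48 h (0.34 ± 0.09; adjusted p = 0.00263 with the trend removed). The groups did not overlap, although each ribosomal protein gene has processed pseudogenes that could take reads. Of 14 tested genes of MHC presentation, 6 had an unadjusted p under 0.05 and 8 were higher with the trend removed. Their median log2 change was 0.29 on the counts as scaled and 0.38 with the trend removed. DESeq2 called 1 of them and limma-voom 0. HLA-B, a class I heavy chain similar to its paralogues, went from 135 and 142 CPM to 216 and 208 CPM (0.62 ± 0.13; adjusted p = 0.117 and 0.00164). Of 11 tested metallothionein and zinc genes, 6 had an unadjusted p under 0.05 and 6 were lower with the trend removed (median -0.90 on the counts as scaled), and DESeq2 called 5 and limma-voom 0. That median was -1.20 and -0.50 without DMSO 24 h replicates 1 and 2. MT1F, a cysteine-rich metal-binding protein whose family members are near-identical, went from 27.1 and 37 CPM to 16.5 and 14.2 CPM (-1.07 ± 0.21; adjusted p = 0.102 and 0.000399). MT2A spread most at 24 h, at 10.4 and 26.6 CPM against 6.37 and 7.22 CPM (-1.45 ± 0.42; adjusted p = 0.215 and 0.037). Without DMSO 48 h replicates 1 and 2, the counts with the trend removed were 5 and 6 for ribosomal proteins, 4 and 4 for MHC presentation and 2 and 1 for metallothioneins.

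**Figure D4:**
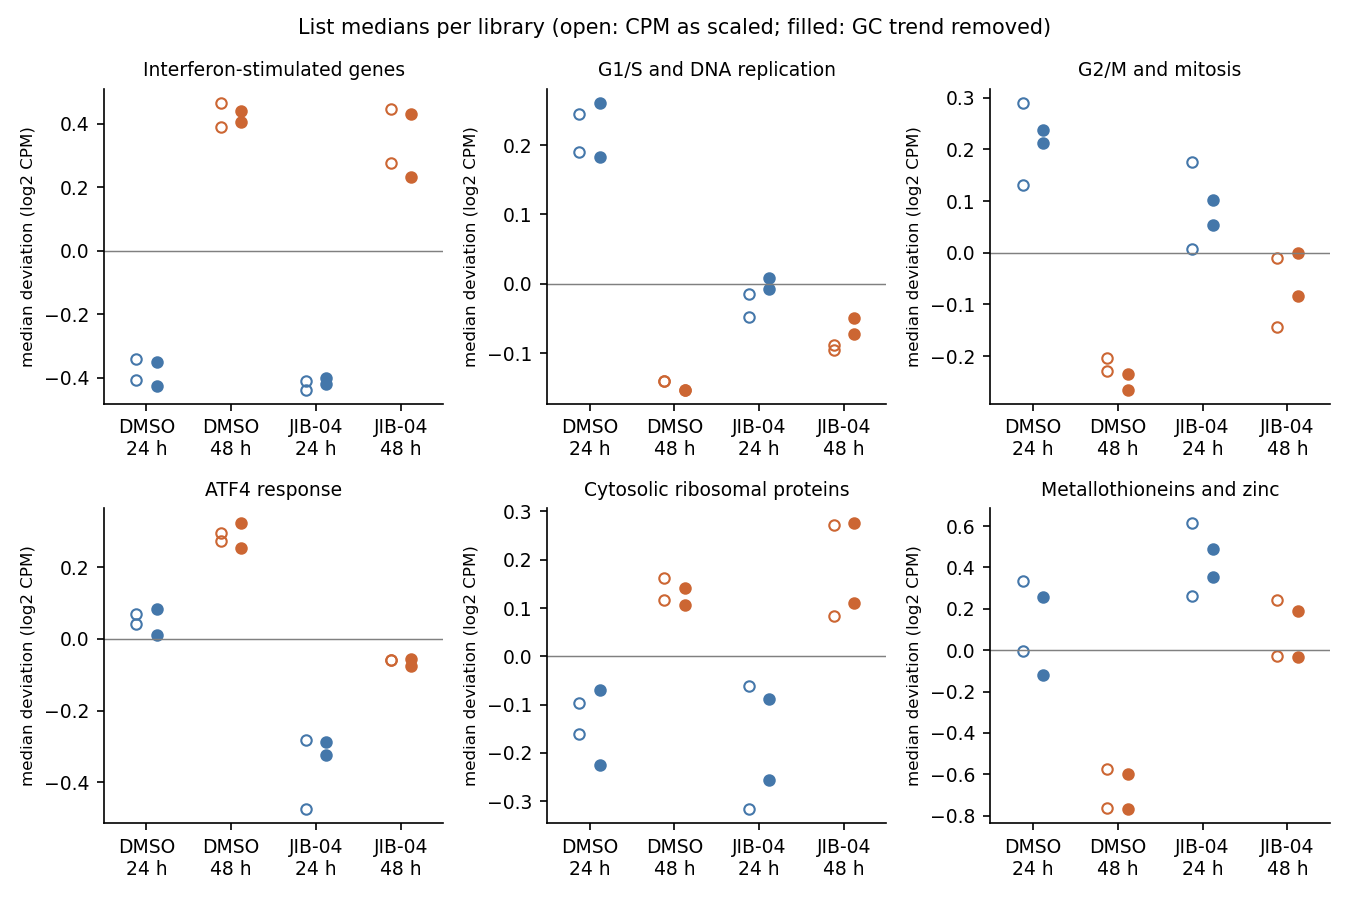
Median deviation from the mean of all 8 libraries (vertical axis, log2 CPM; scales differ between panels) of the tested genes of 6 lists, 1 point per library, open on the counts as scaled and filled with the GC trend removed. With the trend removed the interferon list lies at -0.43 and -0.35 in DMSO at 24 h and at 0.40 and 0.44 at 48 h, and the G2/M list at 0.21 and 0.24 and at -0.26 and -0.23.

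Of the 28 tested NF-κB and inflammatory genes 0 passed on the counts as scaled. At an unadjusted p under 0.05 there were 6, where 1864 of all 15248 tested genes were. DESeq2 called 1 and limma-voom 0, where they called 227 and 57 of all tested genes. With the trend removed 1 was higher and 4 lower, where 6.98% and 6.01% of all tested genes were. IL1B, interleukin-1β, went from 132 and 117 CPM to 80.9 and 81.3 CPM (-0.62 ± 0.11; adjusted p = 0.0734 and 0.000647), whereas the chemokine gene CXCL8 had overlapping groups (286 and 225 CPM and 236 and 262 CPM; log2 change -0.04). BCL2, which blocks mitochondrial apoptosis, went from 234 and 216 CPM to 300.2 and 283 CPM (0.37 ± 0.11; adjusted p = 0.222 and 0.00617). It was the 1 of 13 tested BCL2 family genes that passed with the trend removed, where 6.98% of all tested genes were higher. In a fit of the DMSO libraries alone, with the trend removed, 0 of the family passed. MCL1 had a log2 change of -0.02. The p53 target DDB2, the histone demethylase gene KDM7A, the chaperone gene HSPA8 and the sterol pathway gene ACAT2 passed with the trend removed (adjusted p = 0.000533, 0.000135, 0.000777 and 0.0015). On the counts as scaled their log2 changes were -0.68, 0.95, 0.57 and -0.78, and none of them passed. The log2 changes of the ferritin gene FTH1, the transferrin receptor TFRC, the sterol gene HMGCS1 and the chaperone gene HSPA5 were -0.15, -0.07, -0.06 and 0.11, and none of these 4 passed in either reading. Of genes often used as references, GAPDH had a log2 change of -0.20, ACTB of -0.28 and LDHA of -0.20, and LDHA was lower with the trend removed (adjusted p = 0.0132). In bulk RNA, a change in the share of cells that express a gene and a change in RNA per cell cannot be told apart.

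The cultures with JIB-04 gave a separate time comparison, which shares no library with that in DMSO. By the same test 31 genes passed there (0.203%), 27 higher (0.177%) and 4 lower (0.0262%), and 15 genes passed in both, 14 of them in the same direction. The count of 31 was between 3 and 6 without any single one of the JIB-04 libraries or the DMSO 48 h libraries. Those 14 were 21.5% of the genes that passed in DMSO and 45.2% of those that passed with JIB-04. After removal of the GC trend 902 genes passed with JIB-04 (5.92%), 517 higher (3.39%) and 385 lower (2.52%). Of the 65 genes of the DMSO comparison, 61 had the same sign with JIB-04, where 56.7% of all tested genes did. With JIB-04 the median log2 change was 0.97 over the genes that rose in DMSO and -0.61 over those that fell. Because these genes were chosen for passing in DMSO, the size of their change there is not set against these medians. The interferon list had 11 members higher and 0 lower with JIB-04 and a median of 0.72. MX1 went from 7.50 and 7.30 CPM to 28.8 and 26.7 CPM with JIB-04, a rise of 1.90 (adjusted p = 0.00346). S100P also rose, by 2.64 from 0.645 and 0.609 CPM to 4.02 and 3.89 CPM (adjusted p = 0.00489), at levels below those of the DMSO libraries of the same time.

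**Figure D5:**
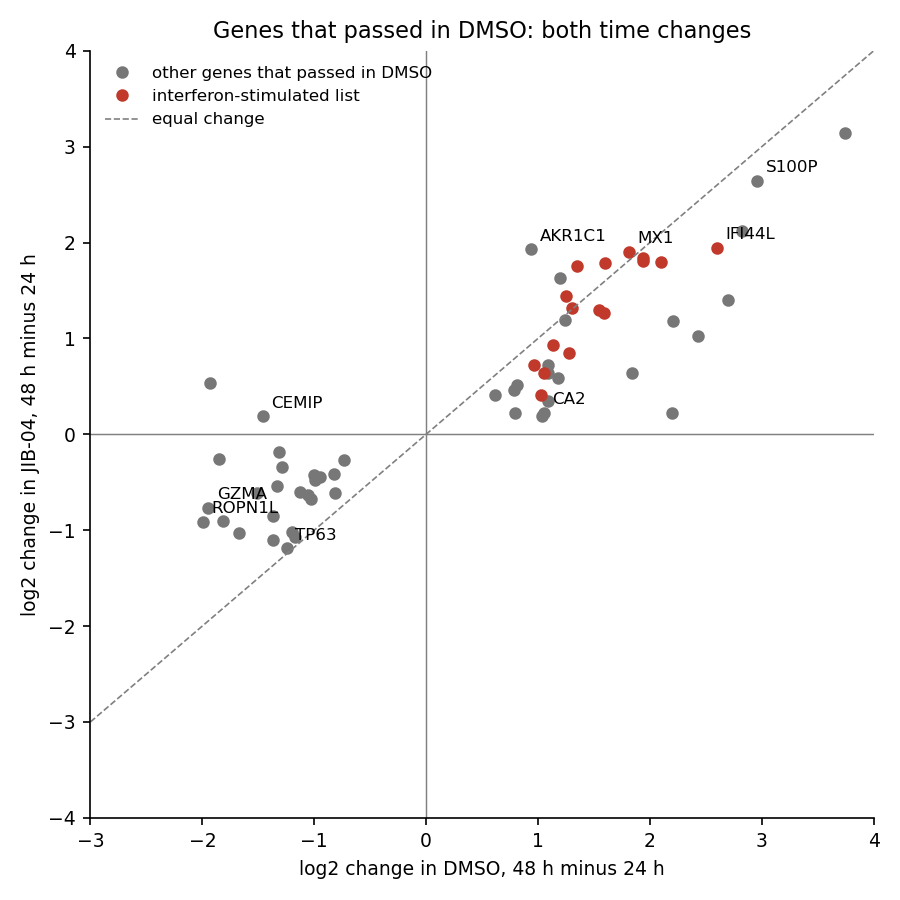
Log2 change from 24 h to 48 h in DMSO (horizontal axis) and with JIB-04 (vertical axis) of 62 of the 65 genes that passed in DMSO, 3 genes lying outside the axes. Of the 65 genes 61 have the same sign on both axes. The genes were chosen by their change in DMSO, so that their distance from the dashed line of equal change is no comparison of its size.

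The test of the difference between the 2 time changes called 0 genes on the counts as scaled (798 at an unadjusted p under 0.05, smallest adjusted p 0.0842), while DESeq2 called 12 and limma-voom 1. After removal of the GC trend it called 121 genes (0.794%), 76 with a more positive change with JIB-04 and 45 with a more negative one. Without 1 library that count was 1 to 6 for 6 of the 8 libraries, and 295 and 150 without DMSO 24 h replicates 1 and 2. CEMIP fell in DMSO and had 36.1 and 30.2 CPM at 24 h and 41.7 and 34.1 CPM at 48 h with JIB-04, a difference of 1.60 (adjusted p = 0.0105 with the trend removed). GZMA fell less with JIB-04, from 22.2 and 29 CPM to 13.8 and 16.3 CPM, a difference of 1.27 (adjusted p = 0.0224). CA2 had 204 and 225 CPM and 235 and 268 CPM with JIB-04, a difference of -0.78 (adjusted p = 0.0105). MKI67, MCM2, CDC6 and KIF20A differed by 0.43, 0.43, 0.54 and 0.55 (adjusted p = 0.0348, 0.0455, 0.0382 and 0.0451). With JIB-04 alone their log2 time changes were -0.16, 0.08, -0.15 and -0.06. Of the G1/S list 5 of 52 genes passed and of the G2/M list 6 of 37, all with a more positive change with JIB-04, and the list medians of the difference were 0.33 and 0.35. LYZ (difference 0.70; adjusted p = 0.0348) and KDM7A (-0.73; adjusted p = 0.0224) passed as well. FTH1 had the smallest adjusted p of this test (1.12; adjusted p = 0.00122). It had a log2 change of -0.15 in DMSO and went from 409.7 and 416 CPM to 834 and 792 CPM with JIB-04, and it has many pseudogenes among which reads could be split. Of the 51 interferon genes 0 passed, and 0 by the test on the counts as scaled.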

How the data were processed

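Poly(A) RNA of AML-OCI3 cells was sequenced with a stranded kit, per the labels' protocols. The authors deposited a table for each time that gives an expected count per gene and library, estimated with RSEM, per the file headers. Their deposited TPM values entered no test. The submitters' processing notes list cutadapt, RSEM, STAR 2.6.1 and the build hg38. Use of the strand in counting is not stated there, so reads of a gene and of its antisense partner cannot be told apart. Genes found in both tables were kept (24077 of 29811), and the rest held 0.00581% of all counts. Values were rounded to whole counts, and filterByExpr of edgeR 4.0.16 (R 4.3.3) at its minimum count of 10 and minimum total of 15 left 15248 genes for testing. A single quasi-likelihood fit over the 8 libraries, scaled by TMM, had a mean for each group and 4 residual degrees of freedom. Its F tests were two-sided, with Benjamini-Hochberg adjustment over every tested gene. In the DMSO libraries 1 count equalled 0.0451 to 0.0511 CPM, which limits the precision of low genes. For the second reading a loess curve (span 0.3) of each library on GC content, taken from GENCODE 29 transcripts, was removed as an offset.

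Alternatives were DESeq2 1.42.0, limma-voom (limma 3.58.1), other size factors, no filter, a block on replicate number and the omission of each library. Steps were tested on simulated data that held the GC trends fitted to these libraries and the same spread for every gene. Such data cannot vouch for the number of genes that passed. The samples and gene lists were chosen with earlier results of these data known. By rule the text names the genes with the 12 largest changes in each direction that passed, have a symbol, do not overlap between the DMSO groups and reach a mean log2 CPM of 1. It also names up to 6 members per list by unadjusted p and a set of reference genes. Further genes, namely ASS1, CA2, OAS1, PARP9, PARP14, MCM6 and NKG7, were chosen after their values were seen. A few genes that this rule picks are not reported here.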

Additional observations from a re-analysis of the deposited data

How the results depend on the processing

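The number of genes that passed between 24 h and 48 h in DMSO (65) was 0 in a fit of the DMSO libraries alone (2074 at an unadjusted p under 0.05, smallest adjusted p 0.0955), 113 with no filter on low counts, 227 with DESeq2 (62 of the 65 among them) and 1980 with the GC trend removed, against 66 with other size factors and 57 with limma-voom. The corresponding count with JIB-04 (31) was 52, 101 and 902 with no filter, with DESeq2 and with the GC trend removed, and that of the difference of the time changes (0) was 1 with no filter, 12 with DESeq2, 1 with limma-voom and 121 with the GC trend removed. With any 1 library left out the 3 counts ranged from 1 to 59, from 3 to 43 and from 0 to 1. When the GC trend was removed as well, which like the next setting was chosen after seeing the data, they ranged from 439 to 1908, from 194 to 1270 and from 1 to 295. Fits of the groups of a contrast alone, with the trend removed, gave 908 and 754. The cause of these shifts was not tested.

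The replicate numbers did not pair the samples in a consistent way, though deviations were related between some groups. Deviations of same-numbered libraries correlated between -0.770 (DMSO 24 h with JIB-04 24 h) and 0.824 (JIB-04 24 h with JIB-04 48 h) over the 6 pairs of groups. In the pairs with DMSO 48 h the correlations were 0.0445 to 0.112. After removal of the GC trend the pair at -0.770 was at -0.383 and the pair at 0.824 at 0.389. With the replicate block the counts were 2 in DMSO, 3 with JIB-04 and 0 for the difference, and with the replicate block and the GC trend removed together 1698, 732 and 46. Over 25 settings the median of the interferon list stayed between 0.76 and 0.88, that of G1/S between -0.46 and -0.32 and that of G2/M between -0.51 and -0.33. Shares of promoters with a motif in the shorter window of 150 bases before and 50 after the start were 57.9%, 47.7%, 58.1%, 71.0% and 20.9% for the interferon, E2F, cell-cycle homology, CCAAT and ATF4 searches. Of the 91 named genes, 7 that did not pass changed the sign of their log2 time change in DMSO when 1 library was left out. Over those omissions, with and without the GC trend, the value ran from -0.19 to 0.055 for CDKN1A, from -0.35 to 0.085 for CDKN1B, from -0.26 to 0.15 for CXCL8, from -0.19 to 0.080 for HMGCS1, from -0.094 to 0.058 for MCL1, from -0.49 to 0.060 for MPO and from -0.19 to 0.066 for TFRC. Over the named genes and the planned settings 1112 values kept both direction and side of the threshold, 221 no longer passed, 115 newly passed and 8 changed sign.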

Other observations

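Further gene groups are given as values, beside the 6.98% of all tested genes that were higher and the 6.01% that were lower in DMSO with the GC trend removed. Of 13 mitochondrially encoded genes, 0 passed in DMSO on the counts as scaled and 0 had an unadjusted p under 0.05; DESeq2 and limma-voom called 0 and 0. With the GC trend removed 2 were lower in DMSO, the complex I subunits MT-ND4 (-0.22, adjusted p = 0.0118) and MT-ND4L (-0.27, adjusted p = 0.0187). With JIB-04 9 were higher in that reading, where 3.39% of all tested genes were. The test of the difference called 8, all more positive with JIB-04, where 0.498% of all tested genes were called so. Its count over all genes depended on single libraries, as given above, and was not followed for these 8. The list medians of the log2 time change on the counts as scaled were -0.02 in DMSO and 0.33 with JIB-04. Of 41 nuclear genes of oxidative phosphorylation, 35 had a negative log2 change in DMSO (median -0.12) and 0 passed on the counts as scaled. At an unadjusted p under 0.05 there were 4, where 1864 of all 15248 tested genes were, and DESeq2 and limma-voom called 0. With the trend removed 5 were lower, a count that depended on single libraries. All 14 of complex I were negative, with a median of -0.20.

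Of 33 unfolded protein response and heat shock genes, 9 were higher and 2 lower with the trend removed, against the same shares. In a fit of the DMSO libraries alone, with the trend removed, 3 were higher and 2 lower. The count of higher genes was also smaller when any 1 library was left out. DNAJB9, a cochaperone of the endoplasmic reticulum, had 3.42 and 2.45 CPM at 24 h and 6.22 and 6.54 CPM at 48 h, with a log2 change of 1.12 ± 0.27 (adjusted p = 0.138, and 0.00421 with the trend removed), and the calreticulin gene CALR one of -0.44 ± 0.11 (adjusted p = 0.163 and 0.00321). Of 37 glycolysis and hypoxia genes, TXNIP and EPAS1 passed on the counts as scaled, and 4 were higher and 7 lower with the trend removed. PDK1, which restrains pyruvate dehydrogenase, had a log2 change of 0.68 and PKM, a pyruvate kinase, of -0.46 (adjusted p = 0.000777 and 0.00312 with the trend removed). ARRDC3, an arrestin-domain relative of TXNIP, had 10.6 and 6.62 CPM at 24 h and 3.50 and 3.22 CPM at 48 h. On the counts as scaled its log2 change was -1.35, opposite in sign to that of TXNIP at 0.79. With the trend removed their adjusted p were 0.00156 and 0.000135.

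The counts of the remaining lists with the GC trend removed stand beside the same shares over all tested genes. Of 38 genes of the NRF2, glutathione and ferroptosis defence list, 4 were higher and 3 lower, of 30 iron, heme and iron-sulfur genes 5 and 1, of 29 cholesterol genes 5 and 2, of 26 fatty acid genes 6 and 2, of 44 lysosome and autophagy genes 2 and 4, and of 35 MYC and ribosome biogenesis genes 6 and 0. Of 33 immediate early genes 3 were higher and 3 lower, of 24 p53 targets 2 and 3, of 39 chromatin enzymes 5 and 5, of 22 HOX and stem cell genes 1 and 0, and of 8 replication-dependent histones 0 and 0. On the counts as scaled AKR1C1 was the 1 gene of these lists that passed.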
